A study of Culex quinquefasciatus with 7 samples.

Results

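A set of 26 genes of the southern house mosquito, Culex quinquefasciatus, had lower messenger RNA levels at 12 h after eclosion (adult emergence) than both earlier at 2 h and later at 72 h. They were chosen from 20305 genes by their deposited values at 2, 12 and 72 h. A member had a mean over the libraries of at least 1 FPKM and reached 5 FPKM at 2 h or 72 h. On the scale of log2(FPKM + 1) it stood at least 1 lower at 12 h than at either end, and its values at 2 h and 72 h differed by less than 1. FPKM is a fragment count divided by gene length and by the total of mapped fragments, so it follows a transcript's share of the library. Of the 8673 genes that passed the 2 level conditions, the members made up 0.3%.

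Whole bodies of adult females, reared with equal light and dark periods of 12 h, were profiled by RNA sequencing at 2, 12, 24, 36, 48, 60 and 72 h after eclosion. Each age has 1 library from 200 pooled females, which leaves no replicate error at any of them. Where 7 values are given for a gene, they follow that order of ages. The sources used here state neither the strain nor feeding, nor the hour of lights-on. In whole bodies, fewer cells of a type and less RNA per cell cannot be told apart.

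The days between eclosion and the first blood meal are a period of maturation in female mosquitoes. The cuticle hardens, flight and feeding become possible, and juvenile hormone prepares the fat body and the ovaries for the later making of yolk. Many insect genes also follow the daily cycle of light and dark, so a sample's hour of the day can matter as well as its age. The files pair no identifier with a gene name, so the members are given by their identifiers and no role is stated for them.

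The 12 h library did not stand apart in depth. Among genes below 0.3 FPKM, the commonest ratio between libraries put its depth at 0.93 of the 2 h library, within a range of 0.744 at 60 h to 1.19 at 72 h. The absolute number of fragments is unknown. The deposited values shift as a whole. Over 2761 genes that reached 10 FPKM throughout, each library's median log2 ratio to the genes' own means was taken. Less that of the 12 h library, it was -0.25 for the 2 h library. It was 0.24, 0.15, 0.26, 0.16 and 0.32 for those from 24 h to 72 h in order. Several of the results that move with this shift are given again after rescaling by it.

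The shape was uncommon. Of 418 genes past the level conditions that stood at least 1 (log2) lower at 12 h than at 2 h, 36 were at least 1 higher at 72 h than at 12 h. The 26 members are those of the 36 whose 2 ends were close, and of the other 10, 2 were higher and 8 lower at 72 h than at 2 h. With the same form of rule and the low library placed elsewhere, dips at 24, 36, 48 and 60 h were found in 7, 3, 5 and 3 genes in that order. The mirror image, a peak at 12 h of at least 5 FPKM over both ends, was met by 64 genes. After rescaling, 31 genes met the rule at 12 h, against 7, 3, 5 and 2 with the low library at 24, 36, 48 and 60 h.

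**Figure D1:**
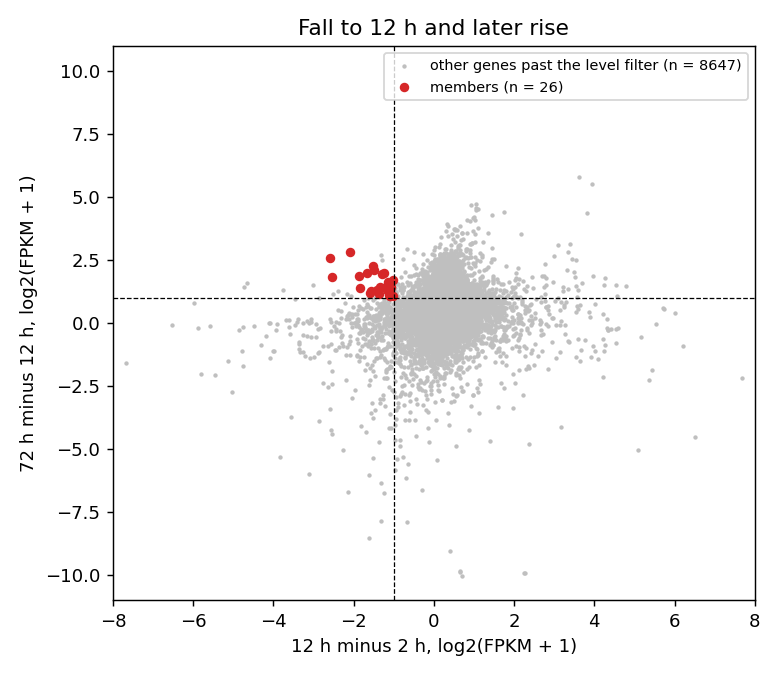
Each point is a gene past the level conditions, with 12 h minus 2 h on the x axis and 72 h minus 12 h on the y axis, both in log2(FPKM + 1). The 26 members (red) fill the corner beyond the dashed thresholds of -1 and 1, where the other 10 genes are those whose ends differ by 1 or more.

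The members were genes of low to middle abundance. Their median was 13.4, 3.96, 9.41, 11.9, 17.6, 12.9 and 17.2 FPKM over the 7 libraries in order of age. At 12 h they ran from 0.849 to 28.0 FPKM, and 9 of them stood below 3 FPKM. Both ends reached 10 FPKM in 16 members, and 0 members were listed at 0 in any library. The members' median of 3.96 FPKM at 12 h lay below the 8.96 FPKM of the 8673 genes past the level conditions, and their 13.4 FPKM at 2 h above the 7.30 FPKM of those genes. The rule asks for a low value at 12 h and higher ones at the ends, so both differences follow largely from it.

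**Figure D2:**
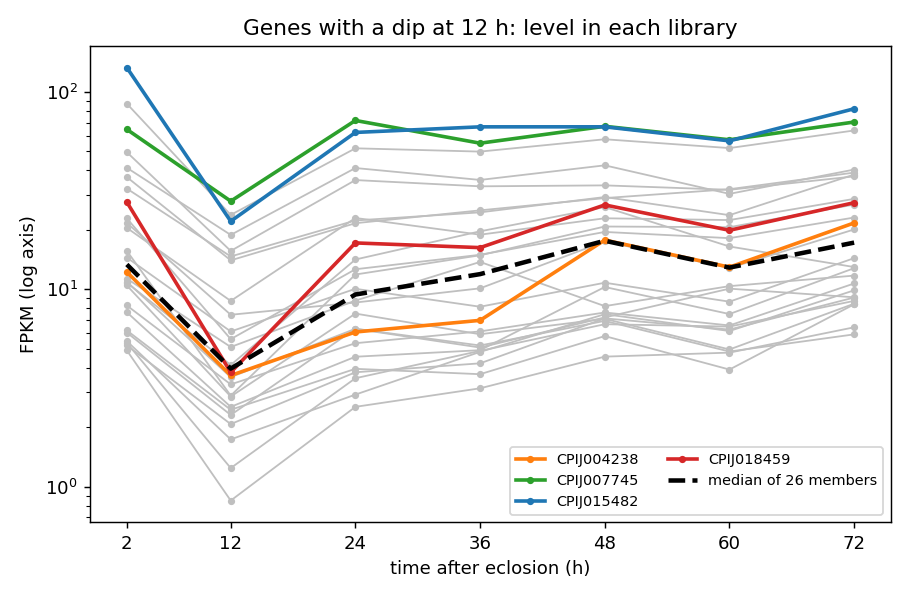
Deposited FPKM (log axis) of the 26 members at each time after eclosion, 1 library per time, with 4 members coloured and the members' median dashed. Every line has its lowest point at 12 h, and the median is 3.96 FPKM there.

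The dip sizes chose the members and are a description only. Over the members, log2(FPKM + 1) was lower at 12 h than at 2 h by a median difference of -1.32 (range -2.58 to -1.01), and higher at 72 h than at 12 h by a median of 1.44 (1.06 to 2.84). As FPKM ratios, the median was 2.97 for 2 h over 12 h and 3.19 for 72 h over 12 h. In counts here and below, 2-fold means a difference of at least 1 in log2(FPKM + 1). The FPKM ratio must then exceed 2. The 2-fold lower value at 12 h held for 25 of the 25 members reaching 5 FPKM in one of these libraries, where 6.22% of all genes with that minimum were so. The 2-fold higher value at 72 h than at 12 h held for 26 of 26, against 29.3% of all such genes. Both counts follow from the rule. After rescaling they were 26 of 26 and 19 of 26, against 647 of 7253 and 1498 of 8334 genes. The members' median differences were then -1.56 and 1.17. Most dips were shallow: 14 of the 26 lay between 1 and 1.25, and 2 reached 2.

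The deepest dip was that of CPIJ018459, which had 27.7, 3.79, 17.2, 16.3, 26.8, 19.9 and 27.5 FPKM from the 2 h to the 72 h library. Its level was 7.30 times as high at 2 h and 7.25 times as high at 72 h as at 12 h. Next came CPIJ018462, with 15.7, 2.89, 11.9, 14.9, 20.8, 20.6 and 26.9 FPKM in the same order of times. Unlike CPIJ018459, whose ends were nearly equal, this gene ended above its starting level.

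The most abundant member was CPIJ015482, with 133, 22.1, 62.4, 66.6, 66.6, 56.5 and 82.2 FPKM in order of age. It regained part of its early level by 24 h and stayed near that value for the next 36 h. CPIJ004401 followed, with 87.3, 23.8, 51.8, 49.9, 57.6, 52.0 and 63.8 FPKM at the 7 times. These are the 2 members that no longer met the limit on the ends after rescaling, which puts their 72 h level further below that at 2 h.

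At the edge of the rule, CPIJ011214 had a dip of 1.01, with 2.07 FPKM at 12 h, 5.19 at 2 h and 9.08 at 72 h. CPIJ005204 had the same dip to that precision, with 5.10 FPKM at 12 h, 11.3 at 2 h and 11.7 at 72 h. Just outside stood CPIJ006925, with 2.07, 5.12 and 6.93 FPKM at 12, 2 and 72 h and a dip of 0.9952, and CPIJ012016, with 2.88, 6.71 and 7.10 FPKM and a dip of 0.9910. These 4 genes are hardly different, so the boundary is one of size and not a gap in the data.

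The libraries at 24, 36, 48 and 60 h took no part in the choice and show how the levels returned. All 26 members were higher at 24 h than at 12 h, by a median of 0.98 on the log2 scale (range 0.18 to 1.92). The 12 h value is a low one by choice, so this difference was not tested. Among the 418 genes with the same early fall, members included, 39.7% were higher at 24 h than at 12 h. Of the 418, only 36 met the 72 h condition that every member met, so this contrast is largely set by the choice. A 2-fold higher level at 24 h was seen in 12 of the 20 members with at least 5 FPKM at either time, against 9.53% of all genes with that minimum. After rescaling 25 of 26 members were higher at 24 h than at 12 h. Their median was 0.82, against 0.10 for all genes past the level conditions. With that minimum, 6 of 19 members were then 2-fold higher, against 406 of 7506 genes. The 1 member not higher after rescaling was CPIJ011423, with 8.57 FPKM at 24 h, against 7.42 at 12 h, as deposited.

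Return was measured against the mean of a member's 2 h and 72 h values on the log2 scale. By this measure 23 of the 26 members were within 1 of their ends, or above them, at 24 h, and 25 at 36 h, where 97.5% and 96.3% of the 8673 genes past the level conditions were. The members' medians from 12 h to 60 h were -1.38, -0.69, -0.58, -0.23 and -0.32. All genes past the level conditions had medians of -0.17, 0.13, 0.19, 0.39 and 0.29. The rule required the members to be high at both ends and asked no such thing of the other genes, so a lower median for the members is largely set by the choice. After rescaling the members' medians were -1.35, -0.87, -0.69, -0.44 and -0.43, and those of all these genes -0.14, -0.04, 0.10, 0.19 and 0.19. Within the margin of 1, 20 members were then back at 24 h and 24 at 36 h. As deposited, with a margin of 0.5 in place of 1, 9 members were back at 24 h and 9 at 36 h. Of the genes past the level conditions, 92.1% and 90.6% were.

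**Figure D3:**
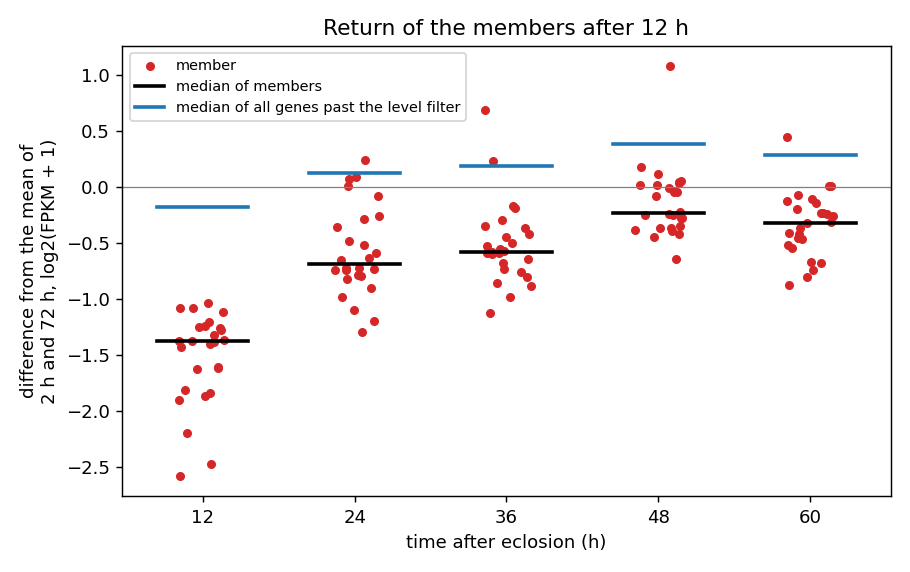
Difference of each member (red) from the mean of its own 2 h and 72 h values, in log2(FPKM + 1), at the 5 times between, with the members' median in black and the median of all 8673 genes past the level conditions in blue. The members' median climbs between 12 h and 48 h from -1.38 to -0.23 and lies below the blue line at every time.

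The members differed in how fast they returned. CPIJ006514 was the furthest above its ends at 24 h, by 0.24, with 10.8, 4.13, 14.2, 19.7, 26.1, 16.5 and 13.0 FPKM in order of age. Its highest level was at 48 h, 1.08 above its ends. CPIJ007745 was back at 24 h as well, with 64.6, 28.0, 71.7, 55.0, 67.0, 57.2 and 70.4 FPKM at the 7 times. Its one low value was at 12 h, and from 24 h on its values stayed between 55.0 and 71.7 FPKM.

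CPIJ004238 was the lowest at 24 h, at -1.29 against its ends, with 12.2, 3.66, 6.07, 6.96, 17.8, 12.9 and 21.7 FPKM over the 7 libraries in order of age. Its largest step upward came between 36 h and 48 h, and at 48 h it stood 0.11 above its ends while 18 members were below theirs. CPIJ015482 was the lowest at 60 h, at -0.88 against its ends. CPIJ011423 was at -1.19 against its ends at 24 h, with 21.7, 7.42, 8.57, 10.1, 17.5, 12.8 and 20.1 FPKM at the 7 times. It is also the 1 member that met the same form of rule with the low library at 24 h.

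Split at 0.5 below the ends at 24 h, a division made after the values were seen, 9 members were quick and 17 slow to return. The quick members had a median of 6.11 FPKM at 12 h and the slow ones of 3.59 FPKM. By the split the slow set stood lower at 24 h, with a median of -0.74 against its ends and -0.08 for the quick set, and at 60 h the medians were close, at -0.32 and -0.26. In the quick set 2 of 9 were higher at 60 h than at 24 h, with a median difference of -0.20, and in the slow set 15 of 17, with a median of 0.55. The 24 h value defines the split and enters the difference, so the approach of the sets follows in part from it and no test was made.

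From 24 h on, few members differed 2-fold between libraries. At 36 h against 24 h, 0 of 20 members that reached 5 FPKM in one of the pair were 2-fold higher or lower, where 1.62% of all such genes were higher and 1.48% lower. At 48 h against 36 h, 1 of 25 was 2-fold higher and 0 lower (0.472% and 0.593% of all genes). That gene was CPIJ004238. CPIJ019873 went from 4.91 to 10.3 FPKM, a ratio above 2, but its difference in log2(FPKM + 1) was below 1. At 60 h against 48 h, 0 of 25 differed by that size in either direction (0.447% higher and 0.507% lower among all genes). At 60 h against 24 h the count was 0 of 24, with 5.61% of all genes higher and 4.70% lower. After rescaling 1 member was higher and 0 lower, where 577 of 8077 genes were higher and 322 lower. The count was 2 with a pseudocount of 0.1. As FPKM ratios, CPIJ004238 (6.07 at 24 h, 12.9 at 60 h) and CPIJ011215 (2.92 and 6.14) exceeded 2. Their differences in log2(FPKM + 1) were 0.98 and 0.86.

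A linear trend over these 4 libraries was tested with limma across the 11837 genes averaging at least 1 FPKM. Of the members, 3 of 26 rose and 0 fell at a Benjamini-Hochberg adjusted p of 0.05. Among all genes tested, 7.89% rose and 4.78% fell. Every member was chosen to be higher at 72 h than at 12 h. Rising slopes over the times between therefore follow in part from the rule, and no conclusion is drawn from the difference in shares. At an unadjusted limma p of 0.05 it was 11 rising and 0 falling members, against 20.3% and 9.48% of all genes. The members' median slope was 0.21 per 24 h on the log2 scale (range -0.27 to 0.83), and that of all genes 0.10. Slopes were positive in 18 members and negative in 8, and positive in 62.0% of all genes.

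The 3 rising members were CPIJ004238, with a slope of 0.83 ± 0.22 per 24 h (SE from 4 libraries, limma adjusted p = 0.021), CPIJ011215, with 0.63 ± 0.20 (limma adjusted p = 0.045), and CPIJ018462, with 0.54 ± 0.17 (limma adjusted p = 0.046). CPIJ011215 had 5.46, 1.73, 2.92, 4.82, 7.48, 6.14 and 9.88 FPKM from the 2 h to the 72 h library, and with CPIJ004238 it had the largest differences between 60 h and 24 h (0.86 and 0.98). These calls were not stable, and neither were those of all genes. With the 24 h or the 48 h library left out, 0 members passed, and 94 and 197 of 11837 genes passed in either direction. With the 36 h library left out 2 members and 1692 genes passed, and with the 60 h library left out 4 members and 900 genes. After rescaling it was 1 member and 1026 of 11824 genes. That member was CPIJ018462 (limma adjusted p = 0.047), while CPIJ004238 (0.056) and CPIJ011215 (0.065) did not pass. With 2 residual degrees of freedom per gene, the fit takes departures from a line as noise.

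The lowest slopes did not pass the test. CPIJ004224 had -0.27 ± 0.18 per 24 h (SE from 4 libraries, limma adjusted p = 0.35), with 10.5, 2.86, 7.53, 5.92, 7.08, 4.95 and 8.45 FPKM in order of age. CPIJ013084 had -0.21 ± 0.17 (limma adjusted p = 0.45), with 41.3, 18.9, 41.2, 35.8, 42.5, 30.4 and 40.4 FPKM. Both were lower at 60 h than at 24 h and higher again at 72 h.

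**Figure D4:**
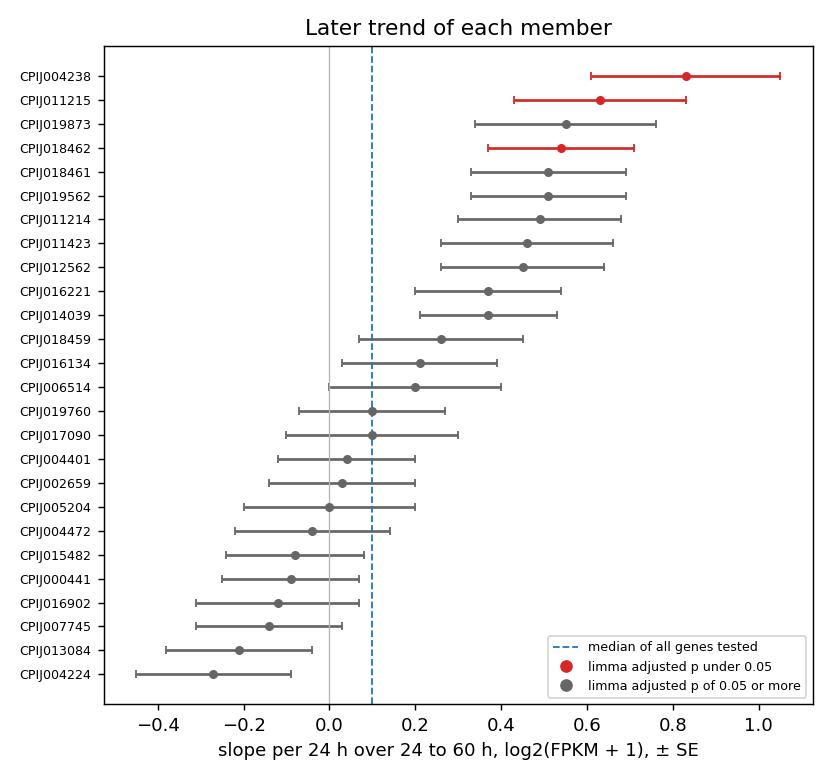
Slope of each member per 24 h over the 24, 36, 48 and 60 h libraries in log2(FPKM + 1), with its standard error from limma; red marks an adjusted p under 0.05 and the dashed line the median of all genes tested, 0.10. The members run from -0.27 to 0.83, and the 3 red ones are all above 0.5.

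From 12 h on, successive libraries alternate between the 2 phases of the daily cycle, and 36 h and 60 h share the phase of 12 h if emergence fell at one clock hour for every pool. The libraries at 36 h and 60 h therefore show whether the dip came again at that phase. At 36 h, 21 of 26 members stood below the mean of their 24 h and 48 h values, by a median difference of -0.17, and 65.4% of genes past the level conditions did so, with a median of -0.09. At 48 h, 25 of 26 stood above the mean of their 36 h and 60 h values, with a median of 0.26, against 75.2% of genes and a median of 0.14. After rescaling these counts were 15 and 22 of 26, with medians of -0.07 and 0.16 for the members. The genes past the level conditions then had medians of 0.004 and 0.04. A level at 36 h below both that at 24 h and that at 48 h was found in 11 of 26 members, against 35.0% of these genes, and after rescaling in 7, against 22.2%.

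Relative to the mean of 24 h and 48 h, the lowest values at 36 h were those of CPIJ004238, with a difference of -0.53, and CPIJ019873, with -0.42. CPIJ019873 had 7.65, 2.53, 4.55, 4.91, 10.3, 7.49 and 12.8 FPKM in order of age. In both genes the 36 h value was above that at 24 h, so neither had a dip there. Among the 11 members that did was CPIJ007745, with 71.7, 55.0 and 67.0 FPKM at 24, 36 and 48 h. CPIJ005204 went the other way, with its highest level of 13.8 FPKM at 36 h between 8.76 FPKM at 24 h and 8.21 at 48 h.

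With time as a covariate, limma compared 36 and 60 h with 24 and 48 h. At an adjusted p of 0.05, 0 members were higher and 0 lower, against 0.0845% and 0.00845% of the 11837 genes. At an unadjusted limma p of 0.05, 1 member was higher and 3 were lower, against 1.78% and 3.07% of all genes. The difference was negative in 25 of 26 members, with a median of -0.20, and in 67.7% of all genes, with a median of -0.09. After rescaling it was negative in 22 of 26 members (median -0.11) and in 51.6% of all genes (median -0.01). This fit has 1 residual degree of freedom and did not recover the changes placed in simulated data, so its count of 0 members carries no weight for or against a daily rhythm.

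Some members carry neighbouring identifiers. Of the 26, 4 had an identifier number 1 away from that of another member and 5 within 2, namely CPIJ011214 and CPIJ011215, and CPIJ018459, CPIJ018461 and CPIJ018462. Of the other 8647 genes past the level conditions, 29 (0.335%) lay 1 away from a member and 53 (0.613%) within 2. Whether neighbouring numbers mean neighbouring places in the genome is not stated in the sources used here. How reads shared between similar genes were counted is not stated either, so the values of any near-identical genes among them are uncertain.

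The members of the first pair ran closely together. The ratio of CPIJ011215 to CPIJ011214 in FPKM was 1.05, 0.836, 0.771, 1.14, 1.05, 0.983 and 1.09 in order of age. CPIJ011214 itself had 5.19, 2.07, 3.80, 4.21, 7.12, 6.25 and 9.08 FPKM over the 7 libraries in order of age. Next to them, CPIJ011216 stayed between 0.380 and 1.03 FPKM, with 0.680 FPKM at 12 h, against 0.380 at 2 h. On the other side CPIJ011213 had 0.0588 FPKM at 12 h, against 0.0550 at 2 h. Both are too low for a course to be read from them.

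In the second group CPIJ018461 had 5.35, 1.24, 3.54, 4.87, 6.65, 6.47 and 8.73 FPKM from the 2 h to the 72 h library. Its ratio to CPIJ018462 was 0.429 at 12 h and between 0.298 and 0.342 in the other 6 libraries. CPIJ018459 moved relative to CPIJ018462, at 1.77, 1.31, 1.45, 1.09, 1.29, 0.964 and 1.02 times its FPKM in order of age. The identifier between them, CPIJ018460, was too low to pass the level conditions, with 0.617, 0.0491, 0.406, 0.344, 0.331, 0.397 and 0.485 FPKM in order of age. Its log2 difference was -0.62 for 12 h minus 2 h and 0.50 for 72 h minus 12 h, both short of the size the rule asks. Its value at 12 h can rest on very few fragments, so no course is read from it. The flanking CPIJ018458 was higher at 12 h than at 2 h (19.6 FPKM against 16.9). CPIJ018463, on the other side, is too low to read as well (0.406 against 0.189 FPKM). CPIJ018460, CPIJ018458, CPIJ018463, CPIJ011216 and CPIJ011213 are named for their place in the numbering, after the values were seen.

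**Figure D5:**
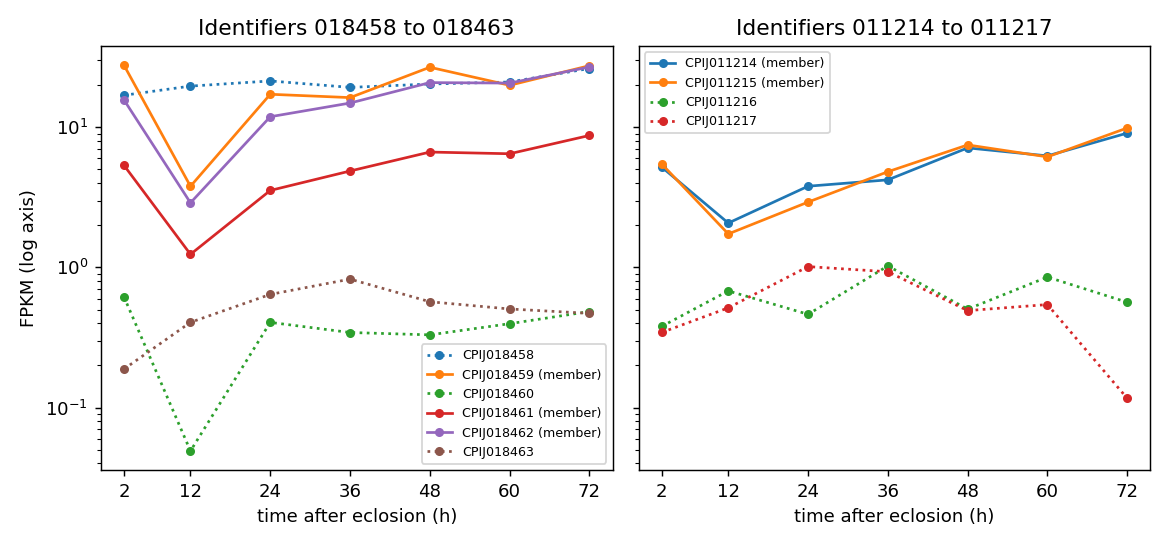
Deposited FPKM (log axis) by time after eclosion for members with neighbouring identifiers (solid lines) and the genes numbered beside them (dotted), 1 library per time. The members CPIJ018459, CPIJ018461 and CPIJ018462 have their lowest point at 12 h, as do CPIJ011214 and CPIJ011215. CPIJ018458 shows no dip there, and the other dotted lines lie near or below 1 FPKM, too low to read.

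The ends of the series also differed among members. The level at 72 h was above that at 2 h in 16 members and below it in 10, with a median difference of 0.10 (log2) and a range set by the rule. All genes past the level conditions had a median of 0.94. After rescaling 6 members were higher and 20 lower at 72 h, with a median of -0.46 for the members, against 0.43 for all genes past the level conditions. The highest library was the 72 h one for 13 members and the 2 h one for 8. It was the 48 h library for 3 members and the 24 h or 36 h library for 1 each. The lowest was the one at 12 h for all 26 as deposited and for 25 after rescaling, where it was so for 10.3% of the 8673 genes as deposited. The rule put the members' 12 h value below both ends, so these counts follow in large part from the choice.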

How the data were processed

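Per the labels' protocols, RNA of 200 pooled females per time was extracted with hot acid phenol, treated with DNase and sequenced as read pairs of 51 nucleotides. The authors deposited 1 table of 20305 genes by 7 libraries, read here as FPKM; no header names the unit, which rests on the series' design text (TopHat, then Cufflinks and Cuffdiff) and on the values. The submitters' processing notes also name CASAVA 1.8 and Trimmomatic. The sources used here do not give the build, gene models, strand setting or between-library scaling. A RefSeq table of 18458 genes held 0 of these identifiers, so gene lists, positions and sequences were not used here.

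Values were analysed as log2(FPKM + 1), which understates changes of low genes. The members, lists and tests were chosen with earlier results of these data known. limma 3.58.1 in R 4.3.3 (lmFit, eBayes with a mean-dependent prior, Benjamini-Hochberg over all genes, threshold 0.05) was fitted to the 4 libraries the rule did not use and checked on simulated data. Genes were named by extremes of dip, level, return, later change, threshold and neighbouring identifier, at most 2 each. Rescaling divided each library by its median ratio to the genes' own means over the libraries, taken on the log2 scale. Python 3.11.15, numpy 2.4.6, pandas 2.3.3 and matplotlib 3.10.9 did the rest. Other alternatives were a pseudocount of 0.1, other minima and margins, and each library left out of the trend fit.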

Additional observations from a re-analysis of the deposited data

How the results depend on the processing

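The rule found 26 genes, and 37 with a pseudocount of 0.1, 31 after rescaling, 20 with a minimum of 10 FPKM, 36 with no limit on the ends and 7 with a dip of at least 1.5. Of the 31 after rescaling, 17 were among the 26; of the 9 lost, 7 had a dip below 1 (0.75 to 0.99) and 2 had ends that differed by 1 or more. All 26 kept a dip of at least 1 with a pseudocount of 0.1. With a margin of 0.5, 9 members were back at 24 h and 9 at 36 h, against 23 and 25. The 2-fold count at 48 h against 36 h was 2 with a pseudocount of 0.1, against 1, and at 60 h against 24 h it was 2 with that pseudocount and 1 after rescaling, against 0. Members lower at 48 h than the mean of 36 and 60 h numbered 4 after rescaling, against 1. The trend over 24 to 60 h called 1500 genes, 794 of the 4859 that average 10 FPKM or more (a smaller number tested), 217 of 17794 without a minimum, and 94 to 1692 with each library left out in turn, a fit with fewer residual degrees of freedom. Among members it called 3, against 1 after rescaling, 0 without a minimum and 0 to 4 with each library left out. The phase fit called 11 genes, 0 with a pseudocount of 0.1, without a minimum or among genes averaging 10 FPKM or more, and 2 after rescaling, and 0 members each time. Where no construction is named, the cause was not tested. No paired analysis was possible because the labels give every age 1 sample. Depth limits the low values, and the 60 h library was the shallowest.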
